A study of Mus musculus with 12 samples.

Results

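Fibroblasts and contractile stromal cells of mouse colon tumours were followed through 10 of their marker genes, Pdgfra, Pdgfrb, Fap, Pdpn, Dcn, Lum, Dpt, Serpinf1, Acta2 and Tagln, out of 18193 genes on the array. The members were chosen by name, as genes that mark these cells, with earlier results of these data known. Every probe set annotated to a member alone was taken. That gave 17 probe sets, of which none was shared with another annotated gene. Tumours had been established orthotopically in the cecum of C57BL/6 mice from MC38, a mouse colorectal carcinoma line, and all of them carried an inducible hairpin against TDO2, a tryptophan-degrading enzyme. The 4 groups of 3 tumours were APC-KO with doxycycline water (Dox) to induce the hairpin, APC-KO without Dox, APC-WT with Dox and APC-WT without Dox. The labels give the animals neither an age nor a sex, name no clone for the APC-KO line, and leave unsaid whether 1 mouse gave 1 tumour, so p-values reflect the spread among these samples, part of which may be technical. No group with Dox lacked the hairpin among the samples used here, so Dox itself and the hairpin cannot be told apart. Any other difference between the APC-KO and APC-WT cells cannot be told apart from the loss of APC in a comparison of genotypes.

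Fibroblasts build the collagenous matrix of a tumour, and when activated they can take on contractile fibres that contain smooth muscle actin. Platelet-derived growth factor (PDGF) drives the growth and migration of these cells through the receptors encoded by Pdgfra and Pdgfrb, and the second of these receptors also marks pericytes, the contractile cells that wrap capillaries. Decorin and lumican, from Dcn and Lum, are small leucine-rich proteoglycans that bind collagen fibrils and set their spacing, and APC, deleted in the APC-KO line, is the scaffold protein that keeps beta-catenin low.

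The sample labels describe tumours, although the series' design text speaks of MC38 cell lines, and the samples were read as tumours. RNA of whole tumours was measured, so a lower value could mean fewer cells of a type or less RNA per cell, and these cannot be told apart. The same holds for tumour and host cells, since MC38 cells and stroma were profiled together. Array medians, correlations within groups (0.995 to 0.998) and the absence of identical arrays (0 pairs) set no array apart. Counts of genes that passed nonetheless depended on single arrays, as given at the end. The 18S ribosomal control (middle probe set) was between 9.34 and 9.61 in APC-KO Dox tumours, against 9.80 to 10.17 in APC-KO tumours without Dox. It was 9.39 to 9.61 in APC-WT Dox tumours, against 9.46 to 9.59 in APC-WT tumours without Dox, so the APC-KO tumours without Dox stood above the other groups, and its part in any comparison with them, Pdgfra, Pdgfrb and Fap between genotypes without Dox included, was not tested. Of 4 Apc probe sets, 3 passed with Dox and 2 without Dox over all probe sets, lower in APC-KO tumours than in APC-WT tumours. The brightest gave -0.24 ± 0.07 with Dox and -0.10 ± 0.07 without Dox (adjusted p = 0.0443 and 0.416), and the next brightest gave -0.94 ± 0.09 and -0.84 ± 0.09 (adjusted p = 3.08e-06 and 1.02e-05). Which exons were deleted is not in the labels, so a probe set outside them checks nothing, and all 3 probe sets of Tdo2 lay under 5.55, the median over all non-control probe sets, used as a floor to filter dim genes. Among markers of other cells, T cell genes were lower in APC-KO tumours than in APC-WT tumours, 5 of 6 tested genes in either Dox state. With Dox the counts higher and lower in APC-KO tumours than in APC-WT tumours were 3 and 1 of 9 endothelial genes, 0 and 1 of 10 leukocyte and macrophage genes, 0 and 2 of 3 neutrophil genes, 1 and 0 of 4 epithelial genes, and 0 and 1 of 2 mesothelial genes. Without Dox they were 0 and 0 of 9, 2 and 0 of 10, 3 and 0 of 3, 0 and 1 of 4, and 0 and 1 of 2 in the same order. No adipocyte or skeletal muscle gene passed in either, and of 2 enteric glia and nerve genes, 0 with Dox and 1 without Dox were lower.

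All 10 members had a brightest probe set whose mean over the 12 arrays was at or above the floor, and all were tested. Differences are given in log2 units ± their limma standard error, 3 tumours against 3, and an adjusted p is Benjamini-Hochberg over 11070 genes unless it is said to be over all probe sets. Compared with APC-WT tumours, APC-KO tumours had more Pdgfra in both Dox states, more Dpt and Serpinf1 with Dox, and more Fap without Dox. On their brightest probe sets Pdgfrb, Pdpn, Dcn, Lum, Acta2 and Tagln passed in none of the 6 comparisons. With Dox, 3 of 10 members were higher in APC-KO tumours than in APC-WT tumours and 0 lower, where 11.9% of all tested genes were higher and 19.9% passed in either direction. Without Dox 2 members were higher and 0 lower, where 13.8% of all genes were higher and 24.9% passed in either direction. Averaged over the Dox states 4 members were higher and 0 lower, where 20.9% of all genes were higher and 36.5% passed in either direction. The median member difference was 0.166 with Dox and -0.003 without Dox, beside 0.013 and 0.011 over all tested genes. With Dox 4 members and without Dox 2 did not overlap between the genotypes, where 41.4% and 37.2% of all genes did not. These counts are read as descriptions of single members, not of the set. The comparisons share tumours: each Dox comparison uses arrays that also enter a comparison of genotypes.

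**Figure D1:**
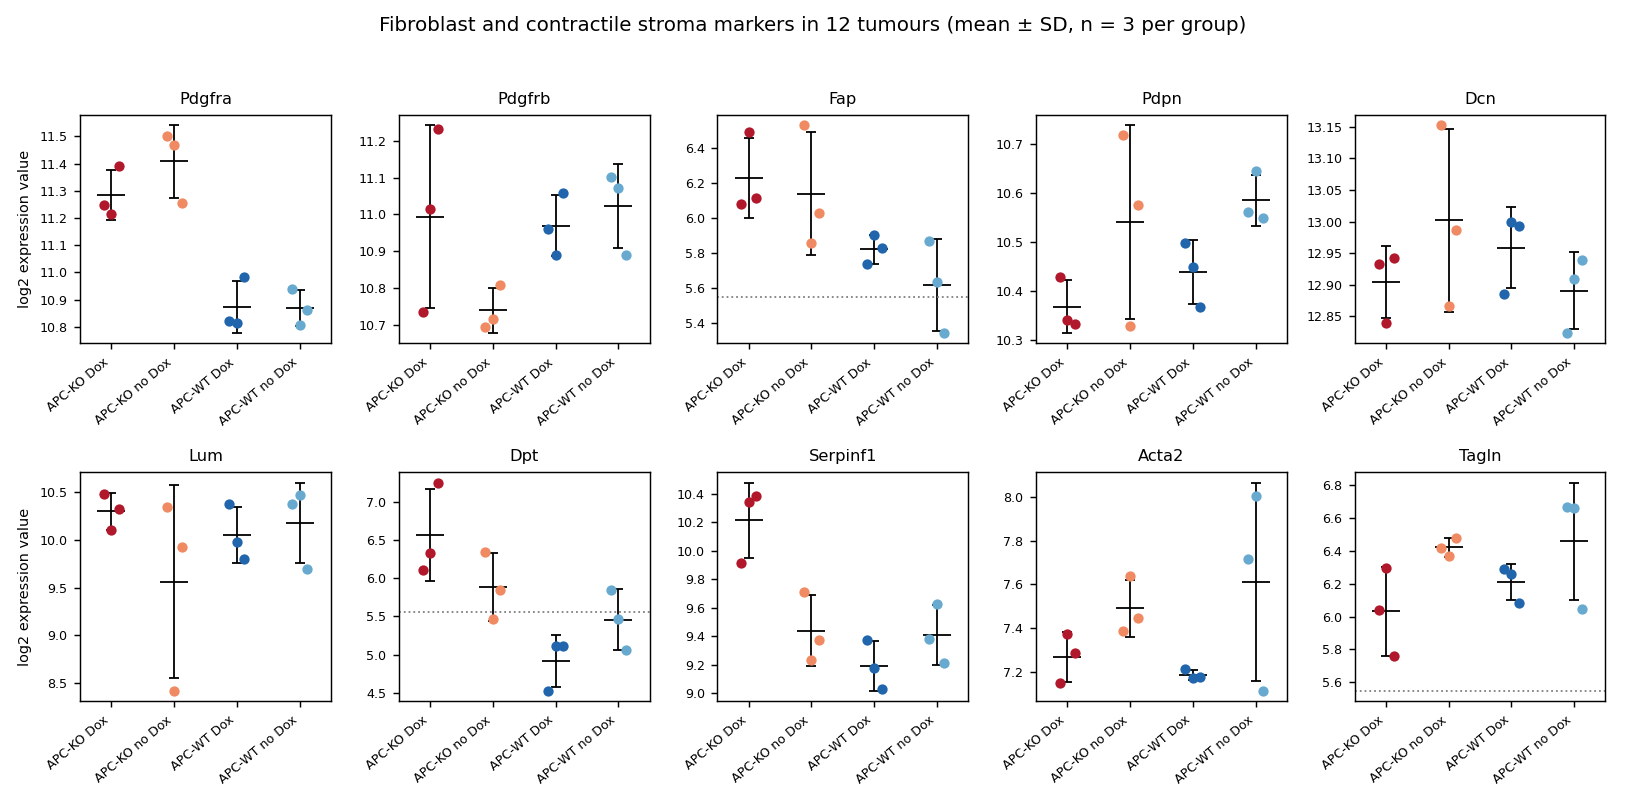
Log2 expression values (vertical axes, a range of its own in each panel) of the 10 members in the 4 groups, with 1 point per tumour and the mean ± SD of 3 tumours; dotted lines mark the floor of 5.55 where it falls in the range. Pdgfra is above APC-WT in all 6 APC-KO tumours, Serpinf1 is highest in the 3 APC-KO Dox tumours, and 1 APC-KO tumour without Dox has a Lum value of 8.43.

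Pdgfra was the member with the steadiest difference between genotypes. On its brightest probe set (1421917_at; gene at chr5:75151322-75198206, GRCm38.p6), the APC-KO Dox tumours had log2 values of 11.25, 11.21 and 11.39, against 10.82, 10.81 and 10.98 in the APC-WT Dox tumours. Without Dox the values were 11.50, 11.47 and 11.25 in APC-KO tumours, against 10.94, 10.81 and 10.86 in APC-WT tumours. Every APC-KO tumour was above every APC-WT tumour in both Dox states. The difference was 0.41 ± 0.07 with Dox (adjusted p = 0.00159) and 0.54 ± 0.07 without Dox (adjusted p = 0.000177), a fold of 1.33 and 1.45. The other probe sets went the same way, by 0.54 ± 0.14 and 0.70 ± 0.13 with Dox (0.0182 and 0.00244, adjusted over all probe sets) and by 0.94 ± 0.14 and 0.86 ± 0.13 without Dox (0.000245 and 0.000376). On the first of these, 1438946_at, the groups with Dox overlapped, since APC-KO Dox tumour 2 at 7.99 lay under APC-WT Dox tumour 3 at 8.05. Group means ran from 11.41 ± 0.13 in APC-KO tumours without Dox and 11.28 ± 0.09 in APC-KO Dox tumours to 10.87 ± 0.10 in APC-WT Dox tumours and 10.87 ± 0.07 in APC-WT tumours without Dox (SD, n = 3). Neighbours of 1 genotype in that order overlapped, with Dox differences of -0.12 ± 0.07 in APC-KO tumours (adjusted p = 0.496) and 0.00 ± 0.07 in APC-WT tumours (adjusted p = 0.986). On 1438946_at the APC-KO Dox tumours all lay under the APC-KO tumours without Dox, by -0.37 ± 0.14. On 1421916_at these groups overlapped, at -0.23 ± 0.13, and neither passed (0.38 and 0.634, adjusted over all probe sets).

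Pdgfrb did not follow Pdgfra. On its brightest probe set (1436970_a_at), the APC-KO tumours without Dox had 10.69, 10.72 and 10.81, against 11.10, 11.07 and 10.89 in the APC-WT tumours without Dox. With Dox it had 10.73, 11.02 and 11.23 in APC-KO tumours, against 10.96, 10.89 and 11.06 in APC-WT tumours. Without Dox all APC-KO values were under the APC-WT values, while with Dox the groups overlapped. The difference was -0.28 ± 0.10 without Dox, which narrowly missed the threshold of 0.05 (adjusted p = 0.0515), and 0.02 ± 0.10 with Dox (adjusted p = 0.895). On the second probe set, 1417148_at, Pdgfrb was lower in APC-KO tumours than in APC-WT tumours without Dox, by -0.44 ± 0.09 (adjusted p over all probe sets 0.00503). The Dox difference in APC-KO tumours was 0.26 ± 0.10 on the first probe set (adjusted p = 0.286) and 0.38 ± 0.09 on the second (adjusted p over all probe sets 0.133). For the interaction, whether the Dox difference was larger in APC-KO tumours than in APC-WT tumours, the first gave 0.31 ± 0.14 (adjusted p = 0.412) and the second 0.56 ± 0.13 (adjusted p over all probe sets 0.216). The difference without Dox passed in 7 of 20 alternatives, among them the mean of both probe sets as the gene's value, at -0.36 (adjusted p = 0.0161), and leaving out APC-WT tumour 3 without Dox or APC-KO Dox tumour 1 or 3. Without APC-KO Dox tumour 1, the Dox difference in APC-KO tumours was 0.38 and passed (adjusted p = 0.0494).

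Among 12 listed PDGF ligands and other growth factor genes of fibroblasts, 9 were tested. With Dox, 2 were higher and 1 lower in APC-KO tumours than in APC-WT tumours, and without Dox 1 was higher and 2 were lower. Fgf7, a growth factor that fibroblasts make for epithelium, was higher by 0.79 ± 0.10 with Dox and 0.67 ± 0.10 without Dox (adjusted p = 7.18e-05 and 0.000286). Pdgfc, a ligand of the receptor from Pdgfra, was higher with Dox by 0.55 ± 0.12 (adjusted p = 0.00567). Igf1r, the receptor for insulin-like growth factor, was lower by -0.36 ± 0.09 with Dox and -0.44 ± 0.09 without Dox (adjusted p = 0.0101 and 0.00263), and Igf1, its ligand, was lower without Dox by -0.45 ± 0.13 (adjusted p = 0.0202).

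Pericyte genes were described beside the PDGF receptors because Pdgfrb marks both cell types. Of 7 tested pericyte genes, 4 were higher with Dox and 5 without Dox in APC-KO tumours than in APC-WT tumours, and 0 were lower. Rgs5, a regulator of G protein signalling in pericytes, was higher by 0.83 ± 0.18 with Dox and 0.84 ± 0.18 without Dox (adjusted p = 0.00667 and 0.00545). Abcc9 and Kcnj8, the subunits of a vascular potassium channel, were higher without Dox by 1.12 ± 0.12 and 1.12 ± 0.15 (adjusted p = 3.45e-05 and 0.0002), and Abcc9 was also higher with Dox, by 0.54 ± 0.12 (adjusted p = 0.0083). The mean over the list was 7.47 to 7.60 in APC-KO Dox tumours, against 7.17 to 7.26 in APC-WT Dox tumours, and 7.49 to 7.65 in APC-KO tumours without Dox, against 6.93 to 7.28 in APC-WT tumours without Dox. Anpep was under the floor, and Cspg4 and Des passed in neither comparison. Cspg4 gave 0.08 ± 0.12 with Dox and -0.22 ± 0.12 without Dox. Des gave -0.46 ± 0.18 with Dox and 0.00 ± 0.18 without Dox. The part of pericyte RNA in the Pdgfra and Pdgfrb differences was not tested.

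Fap and Pdpn encode proteins of the cell surface, a serine protease of activated fibroblasts and a mucin-like glycoprotein that also lines lymphatic vessels. Fap (1417552_at, chr2:62500936-62575509) had values of 6.53, 5.86 and 6.03 in APC-KO tumours without Dox, against 5.87, 5.63 and 5.34 in APC-WT tumours without Dox, the last of them under the floor. With Dox the values were 6.08, 6.49 and 6.11 in APC-KO tumours, against 5.74, 5.90 and 5.83 in APC-WT tumours. The groups overlapped narrowly without Dox and did not overlap with Dox. The difference was 0.52 ± 0.17 without Dox, which passed (adjusted p = 0.0389), and 0.41 ± 0.17 with Dox, which did not (adjusted p = 0.116). In a fit of only the 2 groups compared the calls changed places, with an adjusted p of 0.0854 without Dox and 0.0327 with Dox, and with array quality weights both passed (0.0401 without Dox and 0.0341 with Dox). Averaged over Dox states it was 0.46 ± 0.12 (adjusted p = 0.00884). The call without Dox was also lost when APC-KO tumour 1 or 3, APC-WT tumour 2 or 3, or APC-WT Dox tumour 2 or 3 was left out, with a value of 0.33 (adjusted p = 0.168) without APC-KO tumour 1.

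For Pdpn the range over all 12 tumours was 10.33 to 10.72 and no comparison passed. The difference between APC-KO and APC-WT tumours was -0.07 ± 0.08 with Dox (95% interval -0.24 to 0.10) and -0.04 ± 0.08 without Dox (-0.21 to 0.13). With Dox it was lower than without Dox in either genotype, by -0.17 ± 0.08 in APC-KO tumours and -0.15 ± 0.08 in APC-WT tumours (adjusted p = 0.377 and 0.393). In APC-WT tumours the Dox and no Dox values did not overlap, and in APC-KO tumours they did, since tumour 2 without Dox had 10.33.

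**Figure D2:**
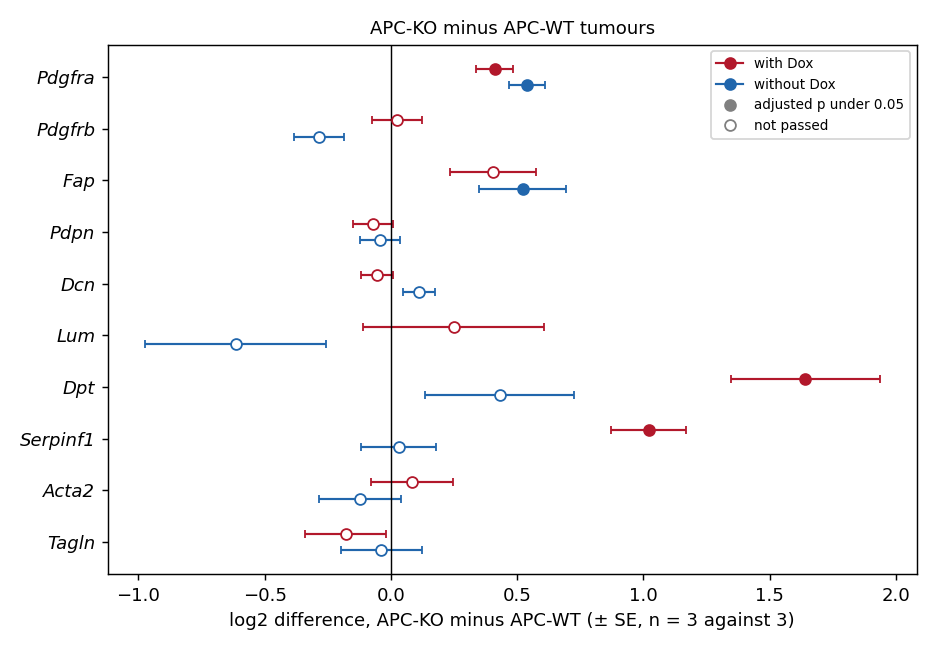
Log2 difference between APC-KO and APC-WT tumours (horizontal axis, ± SE of the limma fit, 3 against 3) for the 10 members, with Dox in red and without Dox in blue; filled points passed at an adjusted p under 0.05. Pdgfra is filled in both, Dpt at 1.64 and Serpinf1 at 1.02 with Dox, and Fap at 0.52 without Dox.

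Of the matrix members, Dpt differed between the genotypes while Dcn and Lum did not pass. Dpt encodes dermatopontin, a matrix protein that binds decorin. Its probe set (1418511_at) gave 6.11, 6.33 and 7.25 in APC-KO Dox tumours, against 4.53, 5.11 and 5.12 in APC-WT Dox tumours, all 3 of which were under the floor. Without Dox it gave 6.35, 5.46 and 5.85 in APC-KO tumours, against 5.85, 5.46 and 5.06 in APC-WT tumours. The groups with Dox did not overlap and those without Dox did. With Dox the difference was 1.64 ± 0.29 (adjusted p = 0.0018), at least 2.01-fold higher when the APC-WT Dox tumours are set at the floor. Without Dox the difference was 0.43 ± 0.29 (adjusted p = 0.311), with 1 APC-KO and 2 APC-WT tumours under the floor, and averaged over Dox states it was 1.04 ± 0.21 (adjusted p = 0.00164). Dox differences were 0.68 ± 0.29 in APC-KO and -0.54 ± 0.29 in APC-WT tumours (adjusted p = 0.352 and 0.397), and the interaction of 1.21 ± 0.42 did not pass (adjusted p = 0.3), so a difference between the Dox states is not shown. The 250 bases before the listed start of Dpt (RefSeq, GRCm38.p6, chr1:164796413-164796662, plus strand) are shown because this matrix member passed between the genotypes with Dox:
Dpt: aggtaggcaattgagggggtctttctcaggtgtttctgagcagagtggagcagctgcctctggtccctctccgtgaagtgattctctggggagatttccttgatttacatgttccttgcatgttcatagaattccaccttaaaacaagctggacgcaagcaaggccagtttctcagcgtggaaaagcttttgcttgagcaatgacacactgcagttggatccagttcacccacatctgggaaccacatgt

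Dcn passed in no comparison. Its brightest probe set (1449368_at) ranged from 12.82 to 13.15 over the 12 tumours, and the difference between APC-KO and APC-WT tumours was -0.05 ± 0.06 with Dox (95% interval -0.19 to 0.08) and 0.11 ± 0.06 without Dox (-0.02 to 0.25). Without APC-KO tumour 2 without Dox, the difference without Dox was 0.18 and passed (adjusted p = 0.0457). The second probe set gave 0.14 ± 0.12 and 0.08 ± 0.12, and neither passed. Lum, the neighbour of Dcn on chromosome 10, varied more, with 10.48, 10.10 and 10.31 in APC-KO Dox tumours, against 10.34, 8.43 and 9.92 in APC-KO tumours without Dox. It had 10.38, 9.97 and 9.80 in APC-WT Dox tumours, against 10.37, 10.46 and 9.70 in APC-WT tumours without Dox. All groups overlapped, and APC-KO tumour 2 without Dox stood alone at 8.43. The Dox difference in APC-KO tumours was 0.74 ± 0.36 (adjusted p = 0.408) with that tumour and 0.17 without it (adjusted p = 0.858). The difference between APC-KO and APC-WT tumours without Dox was -0.61 ± 0.36 (adjusted p = 0.233) with it and -0.05 without it (adjusted p = 0.904).

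Ogn, Aspn, Prelp and Bgn, genes of the matrix list, encode leucine-rich proteoglycans as Dcn and Lum do. Ogn, osteoglycin, was lower in APC-KO tumours than in APC-WT tumours by -1.51 ± 0.29 with Dox and -1.83 ± 0.29 without Dox (adjusted p = 0.00274 and 0.000602). Aspn, asporin, which binds TGF-beta and collagen, was lower by -0.89 ± 0.17 and -0.98 ± 0.17 (adjusted p = 0.00286 and 0.00123). Prelp was lower without Dox by -0.93 ± 0.21 (adjusted p = 0.00564) and had -0.20 ± 0.21 with Dox (adjusted p = 0.54). Bgn, biglycan, was named after its values were seen and was lower by -0.19 ± 0.05 in both (adjusted p = 0.0197 and 0.0177). In the list of 18 tested matrix genes other than collagens, 3 were higher and 3 lower with Dox, and 2 were higher and 5 lower without Dox. Mfap5, a protein of microfibrils, was higher by 0.64 ± 0.16 with Dox and 0.57 ± 0.16 without Dox (adjusted p = 0.015 and 0.0222). Of 8 fibroblast collagens, 3 were higher with Dox and 1 without Dox, and 0 lower. Col5a1 was higher by 0.75 ± 0.10 with Dox and 0.48 ± 0.10 without Dox (adjusted p = 0.000146 and 0.0035). Col1a1 and Col3a1, the chains of the main fibrillar collagens, were higher with Dox by 0.50 ± 0.09 and 0.23 ± 0.05 (adjusted p = 0.00218 and 0.00836).

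**Figure D3:**
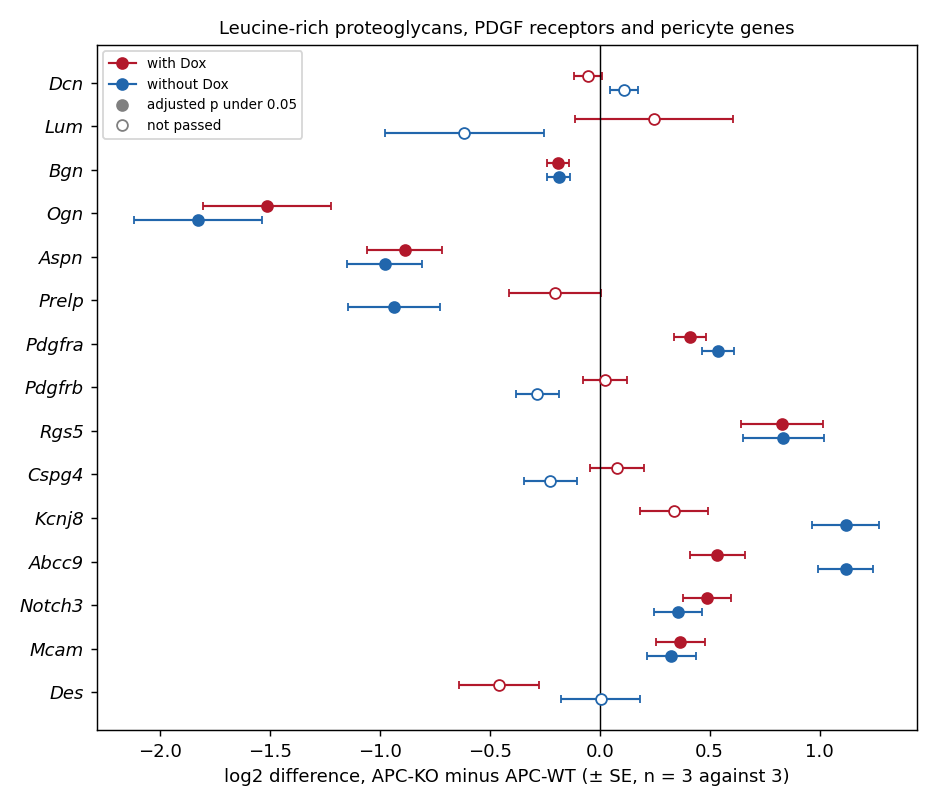
Log2 difference between APC-KO and APC-WT tumours (horizontal axis, ± SE, 3 against 3) for leucine-rich proteoglycans, PDGF receptors and pericyte genes, with Dox in red and without Dox in blue; filled points passed at an adjusted p under 0.05. Ogn and Aspn are lower in both, Dcn lies near 0, and Rgs5, Abcc9, Notch3 and Mcam are higher in both.

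Serpinf1 encodes pigment epithelium-derived factor, a secreted serpin that inhibits vessel growth. It was the member that differed with Dox, and it did so in APC-KO tumours. Its brightest probe set (1416168_at) gave 9.91, 10.35 and 10.39 in APC-KO Dox tumours, against 9.71, 9.23 and 9.37 in APC-KO tumours without Dox. In APC-WT tumours it gave 9.38, 9.18 and 9.03 with Dox, against 9.38, 9.63 and 9.21 without Dox. The 3 APC-KO Dox tumours were above the other 9. In APC-KO tumours it was higher with Dox than without by 0.78 ± 0.15 (adjusted p = 0.0338), a fold of 1.71, and in APC-WT tumours the difference was -0.21 ± 0.15 (adjusted p = 0.503). Between genotypes it was higher in APC-KO tumours than in APC-WT tumours with Dox, by 1.02 ± 0.15 (adjusted p = 0.000346), and had 0.03 ± 0.15 without Dox (adjusted p = 0.902). The second probe set (1453724_a_at) gave 0.66 ± 0.13 for Dox in APC-KO tumours and 0.80 ± 0.13 for the genotypes with Dox (over all probe sets, adjusted p = 0.04 and 0.000771).

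The test of whether the Dox difference of Serpinf1 differed between the genotypes gave an interaction of 0.99 ± 0.21, which did not pass (adjusted p = 0.149), so the gene is not shown to respond differently. It passed in that test without APC-WT tumour 3 without Dox (1.09, adjusted p = 0.0427). The Dox call in APC-KO tumours was itself lost when any APC-KO tumour without Dox, APC-KO Dox tumour 2 or 3, APC-WT tumour 1 without Dox or APC-WT Dox tumour 2 was left out, and it passed in 9 of 20 alternatives, with a value between 0.67 and 0.93 and an adjusted p between 0.0127 and 0.167. Of 3 tested neutrophil genes 2 moved in the same contrast: S100a9 and S100a8 were lower with Dox in APC-KO tumours by -4.30 ± 0.70 and -4.07 ± 0.64 (adjusted p = 0.0133 and 0.0113). Csf3r did not pass, at -0.17 ± 0.09 (adjusted p = 0.465). The mean over these 3 genes was 4.91 to 5.90 in APC-KO Dox tumours, against 7.28 to 8.84 in APC-KO tumours without Dox. Of 10 leukocyte and macrophage genes 1, Cd14, was lower in that contrast, by -0.48 ± 0.09 (adjusted p = 0.0375). The 18S control, highest in the APC-KO tumours without Dox (above), differed in the same contrast. The part of these genes or of the 18S control in the Serpinf1 difference was not tested.

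The 250 bases before the listed start of Serpinf1 (RefSeq, GRCm38.p6, chr11:75422624-75422873, minus strand) are shown for the member that moved with Dox, with capitals for a CArG box, the element bound by serum response factor, with 1 inner base changed:
Serpinf1: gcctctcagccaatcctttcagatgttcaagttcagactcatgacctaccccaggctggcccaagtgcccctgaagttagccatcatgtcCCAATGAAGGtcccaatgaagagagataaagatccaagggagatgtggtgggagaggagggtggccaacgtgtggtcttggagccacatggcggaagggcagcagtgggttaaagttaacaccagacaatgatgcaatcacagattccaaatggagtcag

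Over the 10 members, 1 was higher and 0 lower with Dox in APC-KO tumours, where 0.0361% of all tested genes were higher and 0.542% passed in either direction. In APC-WT tumours 0 members passed with Dox in limma, where 0.0271% of all genes passed, and 1 member, Acta2, had an unadjusted p under 0.05, as had 15.5% of all genes. Dox and no Dox values did not overlap for 3 members in APC-KO tumours and 1 in APC-WT tumours, where 17.7% and 21.3% of all genes did not overlap. The interaction passed for 0 members and 0% of all genes, and 3 members, Pdgfrb, Dpt and Serpinf1, had an unadjusted p under 0.05, as had 11.9% of all genes.

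**Figure D4:**
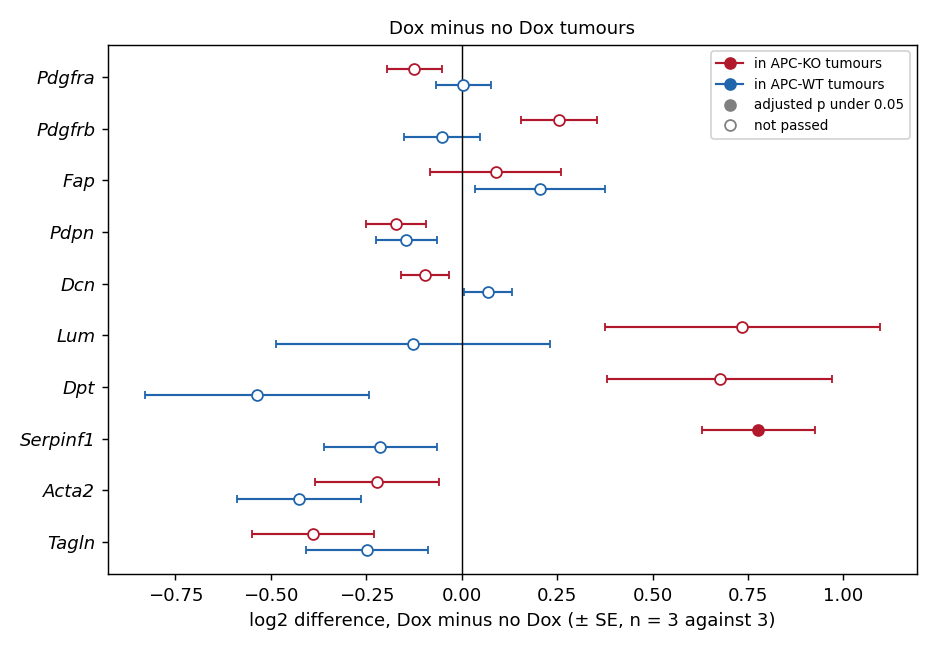
Log2 difference between Dox and no Dox tumours (horizontal axis, ± SE, 3 against 3) for the 10 members, in APC-KO tumours in red and in APC-WT tumours in blue; filled points passed at an adjusted p under 0.05. Serpinf1 in APC-KO tumours, at 0.78, is the filled point, and Acta2 and Tagln lie under 0 in both genotypes without passing.

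Acta2 and Tagln, smooth muscle alpha-actin and the actin-binding protein transgelin, mark contractile fibroblasts, pericytes and smooth muscle. Neither passed in any comparison on its brightest probe set. The brightest Acta2 probe set (1416454_s_at), whose suffix marks probes that can match several transcripts so that related actins may be read too, gave 7.15, 7.37 and 7.28 in APC-KO Dox tumours, against 7.39, 7.64 and 7.44 in APC-KO tumours without Dox. In APC-WT tumours it gave 7.21, 7.17 and 7.17 with Dox, against 7.72, 8.00 and 7.11 without Dox. All APC-KO Dox values were under those without Dox, and in APC-WT tumours only tumour 3 without Dox was as low as the Dox tumours. The Dox difference was -0.22 ± 0.16 in APC-KO and -0.43 ± 0.16 in APC-WT tumours (adjusted p = 0.598 and 0.229). Without APC-WT tumour 3 without Dox, the difference in APC-WT tumours was -0.68 and passed (adjusted p = 0.01), and 418 genes passed in that comparison in place of 3. The other Acta2 probe sets had means of 3.26 and 3.05, under the floor, and are not read further.

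Tagln (1423505_at, chr9:45929628-45936058) behaved alike in its values. It had 6.04, 6.30 and 5.76 in APC-KO Dox tumours, against 6.42, 6.37 and 6.48 in APC-KO tumours without Dox, and 6.29, 6.26 and 6.08 in APC-WT Dox tumours, against 6.67, 6.66 and 6.05 in APC-WT tumours without Dox. Again the APC-KO Dox values all lay under those without Dox, and APC-WT tumour 3 without Dox was low. The Dox difference was -0.39 ± 0.16 in APC-KO and -0.25 ± 0.16 in APC-WT tumours (adjusted p = 0.316 and 0.471). Between APC-KO and APC-WT tumours the difference was -0.18 ± 0.16 with Dox and -0.04 ± 0.16 without Dox, and that of Acta2 was 0.08 ± 0.16 and -0.12 ± 0.16 (adjusted p between 0.476 and 0.892). Without APC-WT tumour 3 without Dox, the Acta2 difference between genotypes without Dox was -0.37 and passed (adjusted p = 0.0209).

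The 250 bases before the listed start of Acta2 (RefSeq, GRCm38.p6, chr19:34255374-34255623, minus strand), of which 212 lie inside the span of the gene in the same annotation, are shown because the gene is a textbook target of serum response factor, with capitals for CArG boxes with 1 inner base changed:
Acta2: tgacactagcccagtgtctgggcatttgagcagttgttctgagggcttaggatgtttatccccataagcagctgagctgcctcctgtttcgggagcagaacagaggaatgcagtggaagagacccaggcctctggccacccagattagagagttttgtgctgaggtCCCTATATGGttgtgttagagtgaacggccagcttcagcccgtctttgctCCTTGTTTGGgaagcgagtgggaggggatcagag

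Promoter windows were given for 5 of 10 members, Pdgfra, Pdpn, Dpt, Serpinf1 and Acta2. The Pdgfra window (chr5:75152001-75152250) lay with all 250 bases inside the span of the gene, so it does not cover the bases before that span. No exact CArG box was found on either strand in the windows (0 of 5), and 1.47% of 32851 mouse promoter windows of the same length hold one. Allowing 1 changed inner base, Acta2 held 2 matches (bases 84 to 75 and 34 to 25 before the start) and Serpinf1 held 1 (bases 160 to 151), while 8.59% of all windows hold such a match. The TCF/LEF letters CTTTGAT or CTTTGAA were in none of the 5 on either strand and are in 7.48% of all windows. A match is a description of letters only.

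Of 20 listed contractile and smooth muscle genes 12 were tested, and Myh11, Actg2, Cnn1 and Myocd, which define mature smooth muscle, were under the floor. With Dox 1 was higher and 3 were lower in APC-KO tumours than in APC-WT tumours, and without Dox 0 were higher and 5 lower. Srf, serum response factor itself, was lower by -0.55 ± 0.08 with Dox and -0.34 ± 0.08 without Dox (adjusted p = 0.000247 and 0.00641). Cnn2, a calponin of non-muscle cells, was lower by -0.54 ± 0.06 and -0.67 ± 0.06 (adjusted p = 3.66e-05 and 5.88e-06). Mrtfa, a cofactor of serum response factor, was higher with Dox by 0.40 ± 0.10 (adjusted p = 0.0159), and Mylk, myosin light chain kinase, was lower without Dox by -0.44 ± 0.10 (adjusted p = 0.00462). With Dox against no Dox, 0 of these 12 genes passed in either genotype in limma. The genes with the smallest p were Cald1, caldesmon, in APC-KO tumours (0.12 ± 0.06, adjusted p = 0.379) and Tpm2, a tropomyosin, in APC-WT tumours (-0.14 ± 0.05, adjusted p = 0.241).

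TGF-beta, which drives fibroblasts towards the contractile state, was followed through 17 tested genes of its signalling, of which 3 were higher and 2 lower in APC-KO tumours than in APC-WT tumours in either Dox state. Ltbp1 and Ltbp2, latent TGF-beta binding proteins, were higher by 0.91 ± 0.08 and 0.77 ± 0.18 with Dox (adjusted p = 4.2e-06 and 0.00814) and by 0.78 ± 0.08 and 1.01 ± 0.18 without Dox (adjusted p = 1.74e-05 and 0.00123). Smad3, a transducer of the signal, was lower by -0.46 ± 0.06 and -0.42 ± 0.06 (adjusted p = 0.00018 and 0.000332). Of 14 other fibroblast markers, 2 were higher and 1 lower with Dox, and 2 were higher and 2 lower without Dox. Fstl1, a secreted glycoprotein, was higher by 0.53 ± 0.09 and 0.59 ± 0.09 (adjusted p = 0.000841 and 0.000319), and Ddr2, a collagen receptor, was lower by -0.30 ± 0.07 and -0.37 ± 0.07 (adjusted p = 0.0101 and 0.00258). Mrc2, a collagen uptake receptor, was higher by 0.52 ± 0.09 with Dox and 0.30 ± 0.09 without Dox (adjusted p = 0.00149 and 0.0265), and Cd34 was lower without Dox by -0.34 ± 0.08 (adjusted p = 0.00686).

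**Figure D5:**
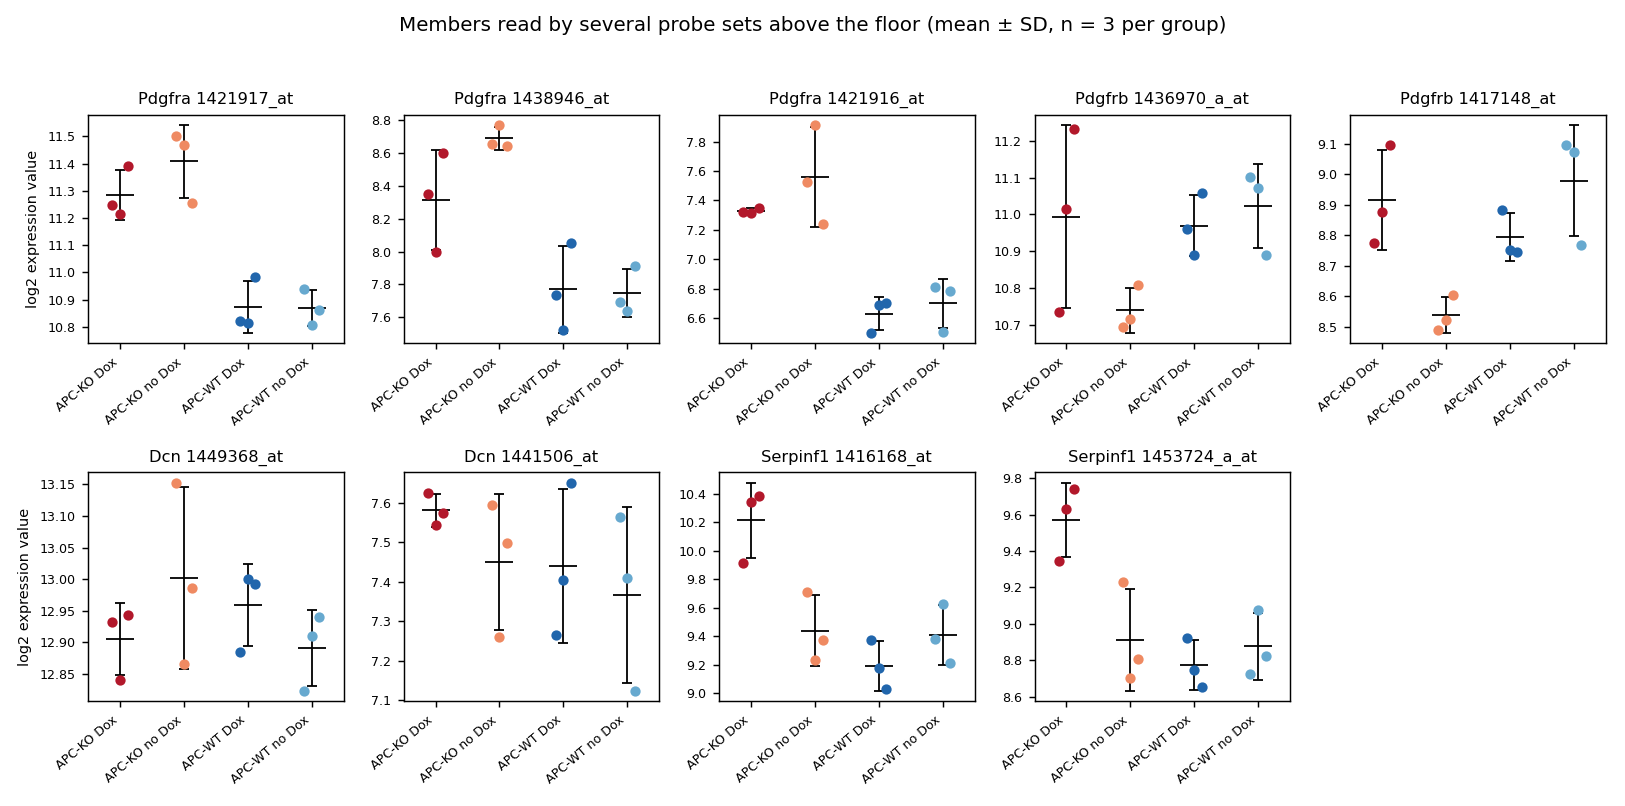
Log2 expression values (vertical axes, a range of its own in each panel) for each probe set of the members read by several probe sets above the floor, with 1 point per tumour and the mean ± SD of 3 tumours per group. All 3 Pdgfra probe sets are higher in APC-KO tumours, both Pdgfrb probe sets are lowest in APC-KO tumours without Dox, and both Serpinf1 probe sets are highest in APC-KO Dox tumours.

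The members did not share 1 pattern over the 12 arrays. With each member scaled to its own mean and SD, the mean over the 10 ran from -0.658 in APC-WT tumour 3 without Dox to 0.832 in APC-KO tumour 1 without Dox. With Dox it was -0.037, 0.300 and 0.429 in APC-KO tumours, against -0.404, -0.371 and -0.429 in APC-WT tumours. Without Dox it was 0.832, -0.484 and 0.183 in APC-KO tumours, against 0.247, 0.391 and -0.658 in APC-WT tumours. The genotypes did not overlap with Dox, where Pdgfra, Dpt and Serpinf1 enter the mean, and overlapped without Dox. The genes whose values were most like single members, by Pearson's r over the 12 arrays, were Fzd5 (0.976) and Anp32e (0.973) for Pdgfra and Nagpa (0.956) and Parp1 (0.954) for Serpinf1. They were Mmut (0.953) and Man1a (0.917) for Fap, Cpd (0.948) and Uqcrc2 (0.945) for Dpt, and Zbtb6 (0.929) and Actr6 (0.905) for Pdgfrb. For Acta2 they were Hsd17b11 (0.937) and Hbp1 (0.913), for Tagln Arhgap28 (0.91) and Rcbtb1 (0.901), and for Lum Chaf1b (0.931) and Mmp23 (0.921). For Pdpn they were Tnnc1 (0.869) and Acpp (0.857), and for Dcn Odf3b (0.839) and Slc39a13 (0.835). The points share group structure, so these genes describe likeness only. They are the best of the tested genes other than the members, with unnamed clones and predicted genes skipped. None of the 5 genes most like the scaled mean (Clk4, Ttk, Atp11a, Tsc1 and Stat5a, r from 0.886 to 0.919) is among the lists above.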

How the data were processed

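RNA of 12 tumours had been measured on Affymetrix arrays. The deposited values are log2 expression values per probe set; the log2 unit was read from their range of 1.86 to 14.16. Per the submitters' processing notes the authors used MAS5, with no version, and how the values were scaled and logged is not stated there. No further normalization was applied.

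Of 45101 probe sets 64 were controls, 34945 had 1 gene symbol, 932 several and 9160 none, and 34741 matched the mouse reference by Entrez identifier. Each gene took its brightest single-gene probe set, and 11070 of 18193 genes with a mean at or above 5.55, the median of non-control probe sets, were tested. This floor is not a measured background. In R 4.3.3, limma 3.58.1 (eBayes with a trend, statmod 1.5.0) estimated the 4 group means jointly from the 12 arrays, and 6 contrasts were tested, two-sided, with Benjamini-Hochberg adjustment and a threshold of 0.05; a second fit covered all 45037 non-control probe sets. The smallest exact p of 3 against 3 tumours is 0.1, so no such test was used. The code was tested on simulated data. Figures used Python 3.11.15 and matplotlib 3.10.9.

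Members and lists were chosen with earlier results of these data known. All members were named, and up to 3 genes of a list that passed with the largest differences, or else the gene of smallest p; for likeness, the 2 genes with the highest r for each member and 5 for their mean. Where 1 group lay wholly under the floor, the fold is a bound that sets that group at the floor. Same-numbered tumours did not deviate together (correlations of their deviations -0.221 to 0.138), so numbers were not taken to pair samples. Alternatives were the prior, the value per gene, 2 filters, quantile normalization, array weights, the samples in the fit, a replicate block and leaving out each array.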

Additional observations from a re-analysis of the deposited data

How the results depend on the processing

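No called member changed direction in any alternative. Of 1150 alternative values of single members, 1115 kept their side of the threshold, 17 passed newly and 18 no longer passed; 28 values that did not pass changed sign. For Dox in APC-KO tumours the main count was 1 (Serpinf1), and it was 0 without a trend in eBayes, with the mean of the probe sets, with a replicate block and with only the groups compared in the fit; leaving out 1 array gave 0 to 2. The replicate block, on numbers that do not pair the samples, left the other counts at 0 for Dox in APC-WT tumours, 3 and 2 for the genotypes with and without Dox, 4 averaged and 0 for the interaction. For Dox in APC-WT tumours the count was 0, and 1 (Acta2, lower) with array quality weights; leaving out 1 array gave 0 to 1. For APC-KO against APC-WT without Dox it was 2 (Pdgfra and Fap). It was 3 with the mean of the probe sets and with quantile normalization, where Pdgfrb joined as lower. With the filter at the 75th percentile and with only the groups compared it was 2, with Pdgfrb (lower) in place of Fap. It was 4 with every probe set tested, where Pdgfrb and a dim Acta2 probe set joined, and leaving out 1 array gave 1 to 3. With Dox it was 3 in every fit that left out 1 array, and between 2 and 4 in the other alternatives. Averaged over Dox states it was 4, and 2 with the filter at the 75th percentile, under which Fap and Dpt were not tested; leaving out 1 array gave 4 to 5. The interaction gave 0, and 1 (Serpinf1) with array quality weights; leaving out 1 array gave 0 to 1.

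Over all genes, Dox in APC-KO tumours passed for 60, against 29 without a trend, 35 with the mean of the probe sets, 36 with only the groups compared, 143 with every probe set tested, and 1 to 92 when 1 array was left out. Dox in APC-WT tumours passed for 3, against 0 with the mean of the probe sets, 653 with array quality weights, 6 with the replicate block, 18 with only the groups compared, 36 with every probe set tested, and 0 to 418 when 1 array was left out. The genotypes with Dox passed for 2205, against 3510 with weights and 1291 to 2354 when 1 array was left out. Without Dox the main count was 2753 genes, and averaged over Dox states it was 4044. When every probe set was tested, 4284, 5518 and 8385 of 45037 probe sets passed in these comparisons, in the same order. Those values, and the 143 and 36 given above for that setting, count probe sets. They cannot be read against the counts of genes. The interaction passed for 0, against 13 with weights and 0 to 119 when 1 array was left out. The 418 and the 119 were counts without APC-WT tumour 3 without Dox. Without APC-KO Dox tumour 3, Dox in APC-KO tumours passed for 1 gene. The causes were not tested. Precision is limited by 3 arrays per group and, for Fap, Dpt and Tagln, by values close to the floor.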
